A study of Mus musculus with 31 samples.

Results

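The 5 Type4 libraries, from mouse oocytes of secondary follicles and the first of the 3 secondary stages by title (Type4, Type5a, Type5b), were compared with 6 libraries from oocytes of primary follicles, 3 titled Type3a and 3 titled Type3b. They are 11 of the 31 libraries of the series, and were taken by their titles. All come from 1 mouse cross, B6D2F1 (C57BL/6 x DBA/2), with no treatment and no altered allele in the labels. DNA methylation was read by reduced representation bisulfite sequencing, in which MspI cuts DNA at CCGG and bisulfite turns unmethylated cytosines into thymines. The labels give no age, no number of oocytes per library and no animal behind a library, so the spread between libraries may be technical. They also carry an embryo stage tag that goes against the titles and tissue labels, and it was not used.

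A primary follicle holds a growing oocyte inside a single layer of granulosa cells, the somatic cells that nourish it, and a secondary follicle has more than a single layer. Mouse oocytes are largely unmethylated when they start to grow, and the DNA methyltransferase DNMT3A with its partner DNMT3L then methylates transcribed gene bodies and the maternal imprints, the marks that silence 1 parental copy in the offspring. A growing oocyte keeps both X chromosomes active. In female somatic cells 1 X is inactive and its CpG islands are methylated, and many germline gene promoters are methylated too.

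The unit of measurement was a 100-bp tile with at least 3 CpG sites of at least 5 reads each, and its level is the percentage of methylated reads over those sites. A library measured between 41276 and 95106 tiles, and 17161 tiles were measured in all 11. The total of reads over CpG sites, in which a read counts once at every site it covers, ran from 7949652 (Type4 replicate 4) to 57330602 (Type4 replicate 6). At most 0.937% of shared sites had identical counts in any of 16 pairs of libraries of a stage, so each library was counted once.

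The Type4 libraries divided into high and low ones. Over the 17161 tiles, the mean level in Type4 was 27.5% in replicate 1, 32.8% in replicate 2, 17.7% in replicate 4, 26.6% in replicate 5 and 17.8% in replicate 6. In Type3a it was 26.02% in replicate 1, 15.9% in replicate 2 and 16.3% in replicate 4. In Type3b it was 18.6%, 20.8% and 22.2% in replicates 1, 2 and 3. Type3a divided as well, with replicate 1 above replicates 2 and 4. The SD of the library means was 6.59 points in Type4, 5.74 in Type3a and 1.81 in Type3b. Type4 replicates 1, 2 and 5 lay above all 6 primary libraries, whereas replicates 4 and 6 lay inside the primary range. The medians separated them further: 15.3, 20.7 and 13.3% in Type4 replicates 1, 2 and 5, but 1.73 and 2.29% in replicates 4 and 6, below the lowest primary median of 3.14%.

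The group means were 24.4% ± 6.59 (SD, n = 5) in Type4 and 19.97% ± 3.86 (n = 6) in primary follicles. The difference of 4.48 percentage points did not exceed the spread between libraries (two-sided exact permutation test, p = 0.186, adjusted over 3 comparisons p = 0.295). Against Type3a alone it was 5.06 points (exact permutation p = 0.196, adjusted 0.295) and against Type3b alone 3.89 points (exact permutation p = 0.375, adjusted 0.375). These 3 comparisons share the Type4 libraries. The smallest p that 5 libraries against 6 can give is 0.00216, and that of 5 against 3 is 0.0179.

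The Type4 libraries also differed from each other more than the primary ones did. The median SD of a tile between libraries was 7.95 points in Type4 and 6.02 points in primary follicles, and it was larger in Type4 in 60.3% of tiles. Across tiles, the correlation between a pair of Type4 libraries had a median of 0.814 (10 pairs), against 0.846 within the primary libraries (15 pairs) and 0.822 between the groups (30 pairs). These are correlations across tiles of single libraries. The wider spread of Type4 was known before the comparison, so the SDs and correlations are a description. Type4 also held the libraries of lowest and highest median reads per site, replicate 4 (12) and replicate 6 (35). The part of depth in the spread was not tested. Tile by tile, Type4 replicate 2 exceeded every primary library in 42.1% of tiles, replicate 1 in 31.01% and replicate 5 in 26.6%. Replicates 4 and 6 exceeded all of them in 7.86 and 7.60%, and lay below all of them in 11.7 and 8.05%.

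The X measure, the mean level of X-linked tiles with at least 60 listed CpG sites per kb minus that of autosomal tiles of the same density, moved with the same libraries. It was 2.87 points in Type4 replicate 1, 8.34 in replicate 2 and 8.34 in replicate 5, and -4.28 and -1.36 in replicates 4 and 6. All 6 primary libraries were negative, between -5.98 and -2.90 points, and replicate 4 lay inside that range. The difference between groups was 7.09 points over 23 X tiles (exact permutation p = 0.00866), and it was 4.17 points (exact permutation p = 0.0866) when each library was read over all the dense tiles it had measured. The X measure is given because it was known to vary between Type4 libraries, so these differences and their p are a description. Type3a replicate 1, the highest primary library in mean level, had an X measure of -4.00 over the common tiles and of 2.54 over its own, the highest primary value there. Over their own tiles Type4 replicate 6 (0.957) and Type3b replicate 1 (0.298) were also above 0, and Type4 replicates 1, 2 and 5 stood at 4.53, 11.7 and 6.22. Over the common tiles these last 3 were the libraries above 0, and the results below are also given without them, which leaves 2 Type4 libraries against 6. The part of X-linked methylation, or of DNA from somatic cells, in the results was not tested. Without those libraries Type4 minus primary was -2.25 points (17.7 against 19.97%). They are also the 3 highest of the 11 in mean level, so leaving them out lowers the difference by construction, and the values without them are given as a description.

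**Figure D1:**
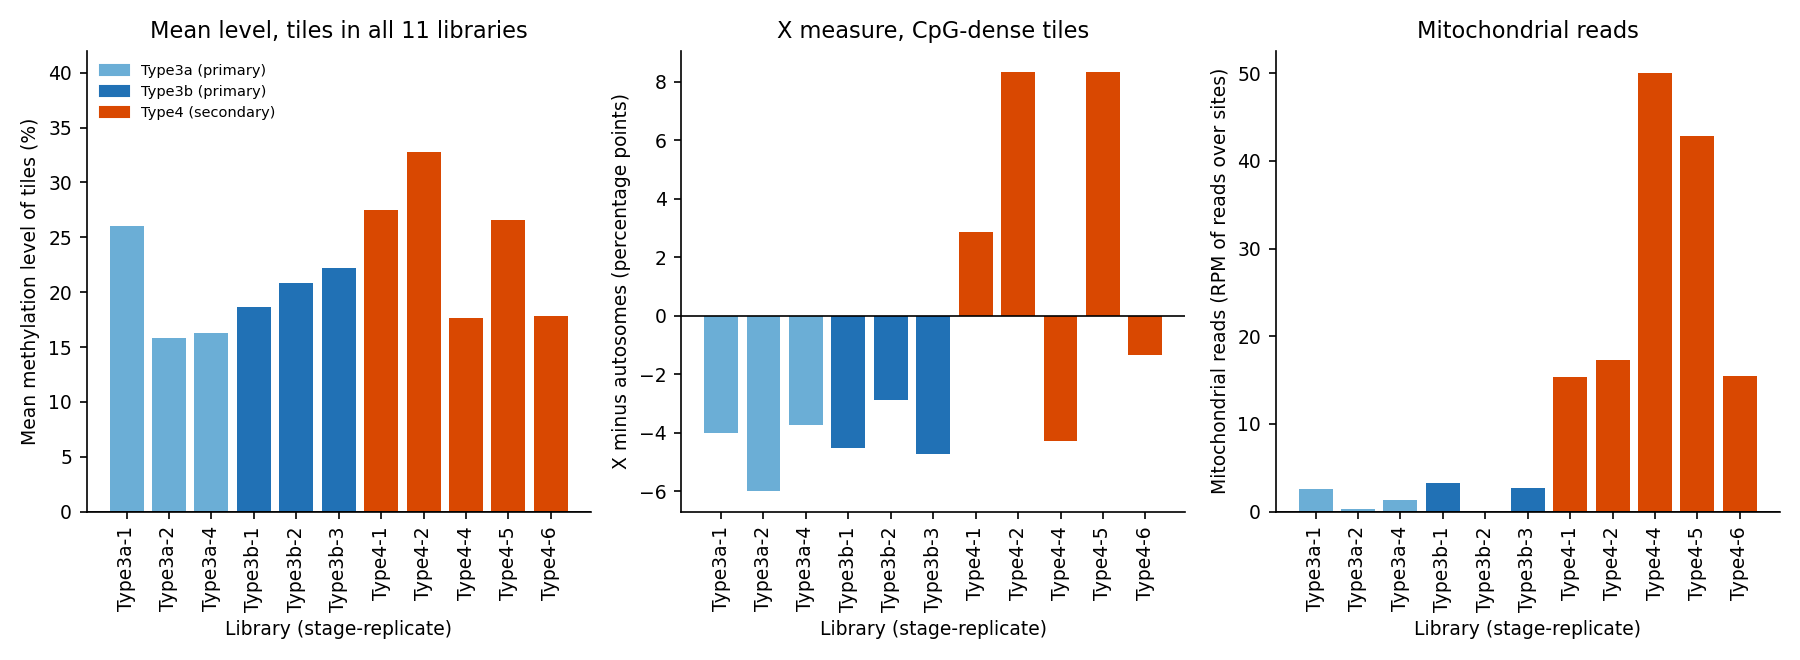
Bars show, for each of the 11 libraries, the mean level of 17161 tiles (percent), the X measure (percentage points) and the mitochondrial reads in RPM of the reads over sites. Type4 replicates 1, 2 and 5 are highest in the left panel and are the 3 libraries above 0 in the middle panel, while all 5 Type4 libraries exceed the primary ones in the right panel.

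Sparse and dense sequence moved together within a library. In tiles with up to 9 listed CpG sites in the surrounding 1 kb, the level in Type4 was 33.0, 42.9, 17.1, 32.5 and 16.04% in replicates 1, 2, 4, 5 and 6. The primary libraries ran from 12.8 to 29.9% there. In tiles with 60 or more sites, typical of CpG islands, Type4 ran from 7.72 to 12.3% and primary libraries from 7.66 to 10.6%. The Type4 minus primary difference shrank with density. It was 7.73 points in the sparsest class and 6.34 in the class of 10 to 19 sites. Tiles with 20 to 39 sites differed by 4.31 points, those with 40 to 59 by 2.34 and the densest by 1.03. None of the 5 classes passed (exact permutation, adjusted p = 0.301 in each), and without the 3 libraries, the highest Type4 ones in each class, the differences lay between -4.00 and -0.86 points. All 20 chromosomes tested had a higher Type4 mean, by 3.02 points on chromosome 2 to 6.24 points on X, and none passed (exact permutation, adjusted p = 0.251 in each).

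Tiles were next sorted by what happens to them over oocyte growth, using only libraries outside the comparison: both primordial stages (Type1, Type2) and the last antral stage (Type7). A tile was low under 20% and high over 80%. The 1173 tiles that are low in primordial and high in Type7 oocytes, the targets of methylation during growth, had a level of 26.7, 36.5, 7.90, 24.7 and 7.21% in Type4 replicates 1, 2, 4, 5 and 6. Their level was 21.04, 3.04 and 5.71% in the Type3a libraries and 8.37, 13.7 and 15.9% in the Type3b ones. Again Type4 replicates 1, 2 and 5 lay above every primary library and replicates 4 and 6 inside the primary range. The means were 20.6% ± 12.7 and 11.3% ± 6.78, compared with 96.7% in Type7, and the difference of 9.31 points did not pass (exact permutation, adjusted p = 0.306).

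The same order of libraries appeared where little or no methylation arises later. In 8533 tiles low both in primordial oocytes and in Type7, Type4 replicates 1, 2 and 5 stood at 6.58, 9.11 and 6.34%, and replicates 4 and 6 at 2.82 and 2.52%. Type7 itself had a mean of 2.48% in these tiles, and the 6 primary libraries ran from 2.10 to 6.31%. In 1209 tiles of intermediate level in Type7 the means were 22.7% in Type4 and 14.7% in primary oocytes, and in 59 tiles high throughout they were 88.7 and 87.4%. No class passed (exact permutation, adjusted p = 0.306, 0.306 and 0.476), and without the 3 libraries, again the highest Type4 ones in each class, the differences lay between -3.73 and -1.13 points. The share of a library's tiles under 20% was 57.8% ± 8.42 in Type4 and 63.9% ± 6.56 in primary oocytes, and the share over 80% was 4.62% ± 3.47 and 2.23% ± 1.51 (exact permutation, adjusted p = 0.297 for both).

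**Figure D2:**
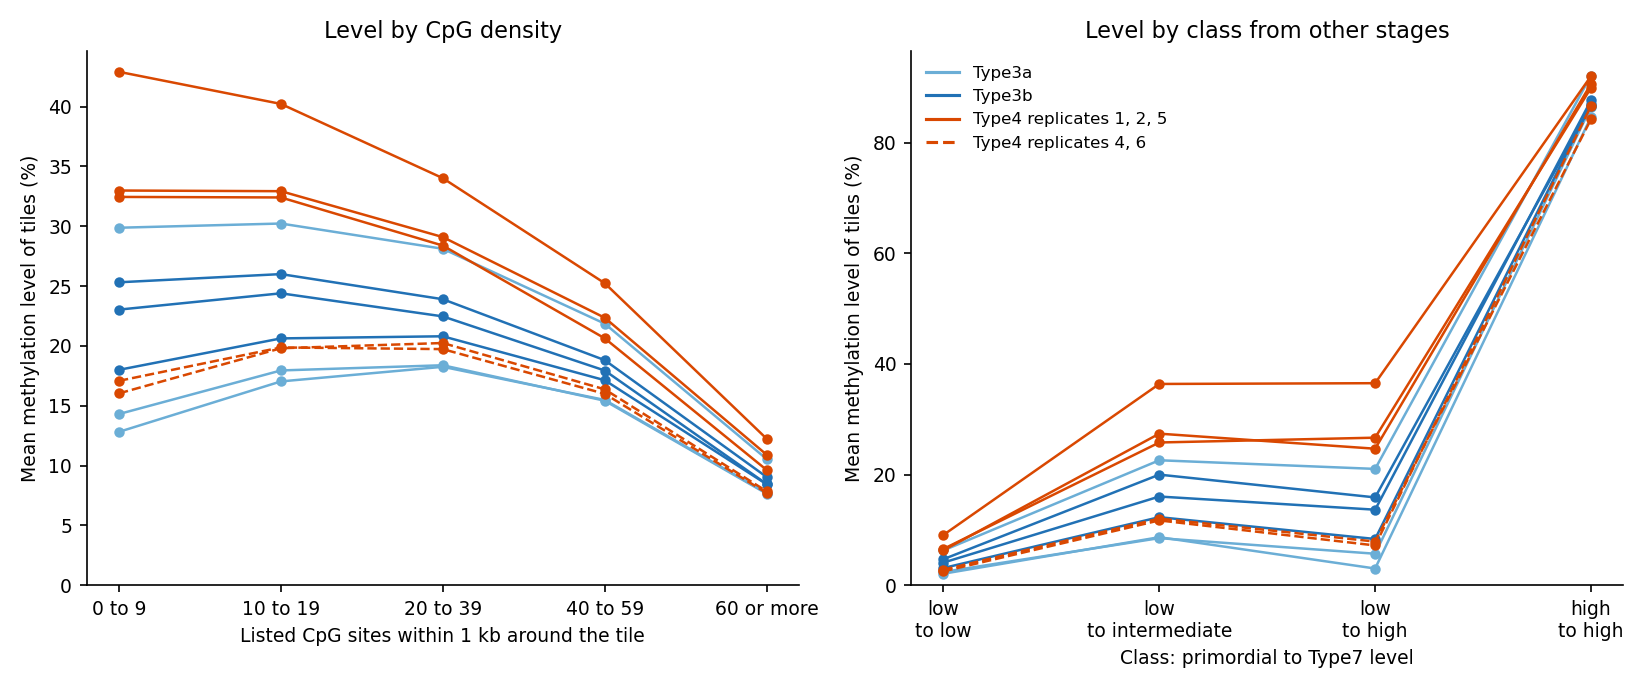
Lines join the mean tile levels (percent) of each library over classes of CpG density (left) and over classes set by the primordial and Type7 libraries (right). Type4 replicates 1, 2 and 5 (solid) run above the other libraries in tiles with up to 39 sites and in the 3 classes that start low, and replicates 4 and 6 (dashed) run among the primary libraries, except that replicate 4 is lowest, at 84.2%, in tiles high throughout.

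Each tile was then fitted by itself from its methylated and unmethylated reads (a quasi-binomial model), with the spread taken from the 11 libraries. Among 62528 tiles measured in at least 3 libraries of each group, 0 met both limits set for a call (0%), an adjusted p under 0.05 and group means 20 or more points apart, and the smallest adjusted p was 0.0527. At an unadjusted p under 0.05 there were 8938 tiles (14.3%), of which 6144 (9.83%) were higher in Type4 and 2794 (4.47%) lower. These 8938 tiles are given as a count only, since none of them passed after adjustment and the unadjusted p of this test ran low for unchanged tiles when tested on simulated data. limma on the tile levels called 6 tiles (0.0096%), all higher in Type4, and edgeR 0 (0%). A difference of at least 20 points was found in 5376 tiles upwards (8.6%) and in 562 downwards (0.899%). All 5 Type4 libraries lay above all 6 primary ones in 62 of the 17161 tiles (0.361%), and below them in 8 (0.0466%).

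The tile nearest to a call lies at chr5:106800701-106800800 (mm9) and holds 5 CpG sites in sparse sequence. Its level in Type4 was 47.9, 48.0, 49.2, 52.1 and 39.7% in replicates 1, 2, 4, 5 and 6. In Type3a it was 11.7, 13.8 and 14.7%, and in Type3b 18.4, 14.6 and 17.4%. Here replicates 4 and 6 were high as well, and the groups did not overlap. The means were 47.3% ± 4.61 and 15.1% ± 2.44, a difference of 32.3 points (quasi-binomial, p = 8.43e-07, adjusted 0.0527). Between 59 and 359 reads over sites lay behind each library's value, and a read counts once at every site it covers. The closest pair, Type4 replicate 6 and Type3b replicate 1, had 95% Wilson intervals of 34.7 to 44.8% and 14.7 to 22.7%. They cover counting error only, and take every count as independent, so they can be too narrow even for that. Other stages had means of 25.6% (Type1), 19.12% (Type2), 26.6% (Type5a), 26.1% (Type5b), 49.5% (Type6) and 33.1% (Type7). This tile passed with limma (adjusted p = 0.00166) and did not with edgeR (adjusted p = 0.901). It was the tile called when sites of at least 3 reads were admitted (adjusted p = 0.0458), when a tile needed at least 5 sites (0.0218) and when sites within CCGG were left out (0.0257). In tiles of 500 bp the tile that contains it was called, at 49.7 against 19.08% (adjusted p = 0.0480). The tile was singled out by its p in these libraries, and the alternatives use the same reads. They and the lack of overlap therefore add no independent support.

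Of the 10 tiles with the smallest unadjusted p among those measured in all 11 libraries, 8 were higher in Type4 and 2 lower, and none was called. At chr19:46745501-46745600 the level was 0% in 5 primary libraries and 3.26% in Type3b replicate 1, against 17.3, 24.0, 12.8, 34.7 and 17.4% in Type4 replicates 1, 2, 4, 5 and 6. The groups did not overlap (difference 20.7 points, quasi-binomial adjusted p = 0.0972), and Type7 was at 0%. At chr10:65931601-65931700 Type4 stood at 46.8, 57.1, 15.0, 32.3 and 56.0% and primary libraries between 0 and 19.05%, so replicate 4 overlapped them (difference 33.7 points, adjusted p = 0.0972). Type7 reached 53.6% in that tile. A tile on X, chrX:156065601-156065700, lies 348 bp from the promoter window of Sh3kbp1, an adaptor protein of receptor uptake. It was at 0% in all 6 primary libraries and at 6.38, 32.1, 0, 10.3 and 17.9% in Type4. Both lower tiles were near 0 in both groups, for example at most 5.65% in the primary libraries and 0% in Type4 at chr11:70376601-70376700, 169 bp from the promoter window of Mink1, a kinase gene. The remaining tiles of the 10 differed by at most 14.4 points.

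One of the 10, chr17:39981401-39981500, belongs to a stretch at chr17:39979901-39985700 where the mm9 assembly carries a copy of the 45S ribosomal RNA gene, so reads of many genomic copies gather on it. Its tiles had a median of up to 70955 reads over sites per library, against 333 for the median tile. Over 20 tiles measured in all 11 libraries, Type4 stood at 13.6, 16.6, 11.3, 16.2 and 10.9% in replicates 1, 2, 4, 5 and 6. Type3a stood at 12.3, 8.95 and 3.51% and Type3b at 7.00, 5.97 and 6.41%. Replicates 4 and 6 were thus above 5 of the 6 primary libraries here, and Type3a replicate 1 overlapped Type4. The Type4 mean was higher in 19 of the 20 tiles. The stretch was singled out after its values were seen, so this is a description.

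The largest differences among the 62 tiles with every Type4 library above every primary one, which were also singled out after their values were seen, lay where methylation is gained later as well as where it is not. The largest, at chr18:9680501-9680600, was at 56.5, 92.0, 68.3, 70.6 and 96.4% in Type4 replicates 1, 2, 4, 5 and 6 and between 7.20 and 44.1% in the primary libraries, with 18.8% in Type7. At chr6:113685001-113685100 Type4 was at 56.1, 100, 28.0, 66.7 and 32.2% and the primary libraries between 0.37 and 16.7%, and Type7 was at 99.3%. At chr12:112499801-112499900 Type4 was at 57.9, 100, 34.4, 26.9 and 71.9% and the primary libraries between 0 and 19.6%, with 95.04% in Type7. At chr9:24358901-24359000 Type4 ran from 41.8 to 96.4% and the primary libraries from 9.34 to 27.6%, with 59.8% in Type7. Over the 62 tiles, 11 were above 80% and 18 under 20% in Type7. The same shares over all 17161 tiles were not taken, so these counts are a description. On X lay 1 of the 62, against 769 of the 17161. The 8 tiles with every Type4 library below every primary one had a median difference of only -2.63 points.

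**Figure D3:**
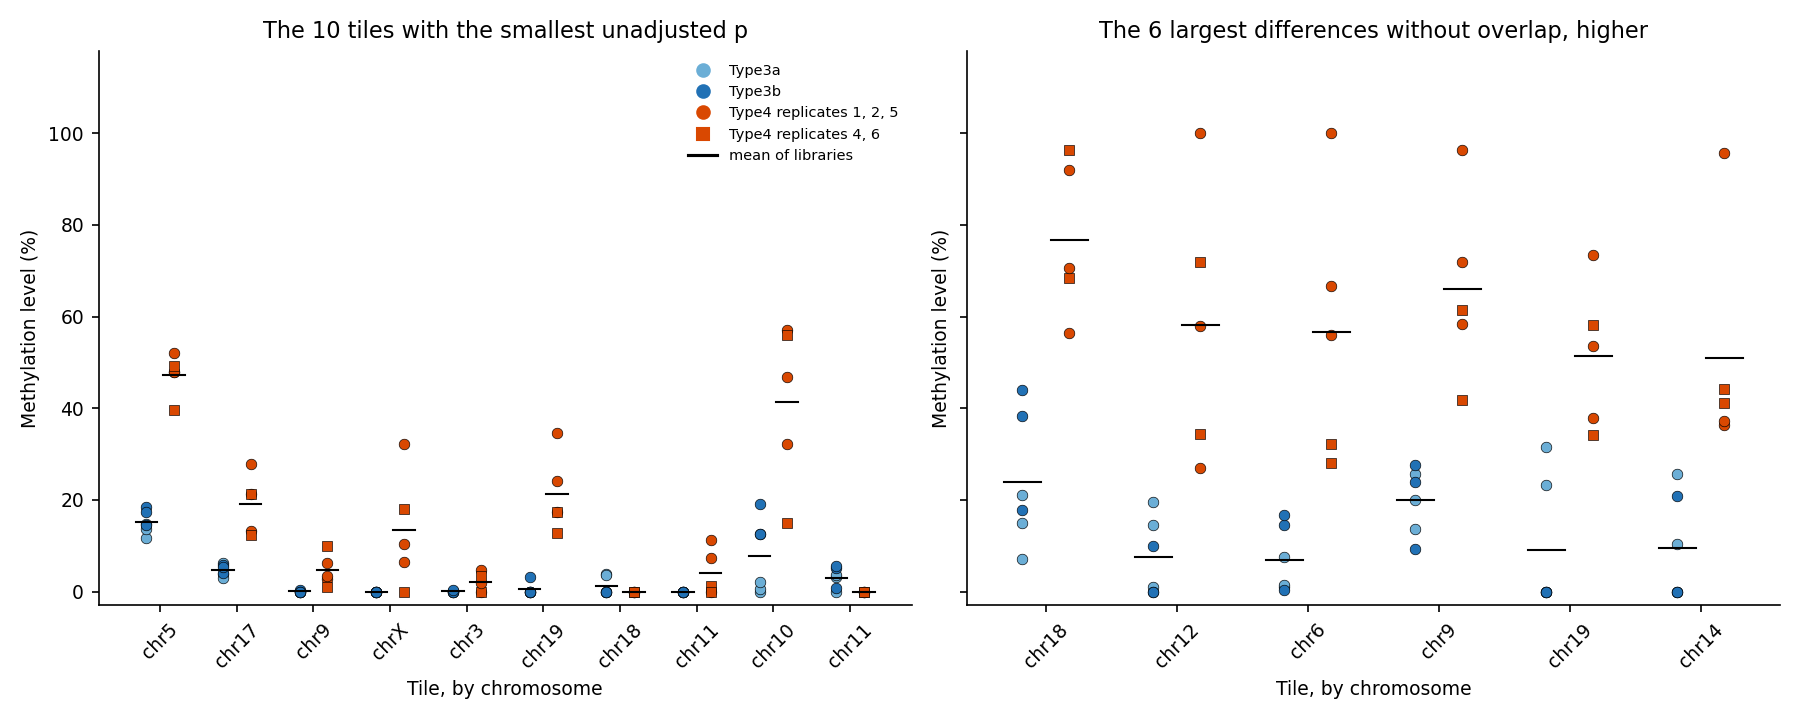
Points show the level (percent) of single tiles in each library, primary on the left and Type4 on the right of each pair, with lines at the group means. In the chr5 tile all 5 Type4 libraries, replicates 4 and 6 (squares) included, sit between 39.7 and 52.1%, above the primary libraries at 11.7 to 18.4%. All tiles shown were chosen by the values of these libraries.

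When the spread was instead estimated over all 31 libraries, 175 tiles were called higher in Type4 (0.28%) and 3 lower (0.0048%). The 175 tiles averaged 50.4, 58.6, 23.7, 54.5 and 46.7% in Type4 replicates 1, 2, 4, 5 and 6, and 6.86 to 15.3% in the primary libraries. These libraries chose the tiles, so the levels are a description. Their means in stages outside the comparison were 13.1% (Type1) and 10.3% (Type2) before it, and 29.9% (Type5a), 52.1% (Type5b), 66.6% (Type6) and 66.1% (Type7) after it. Libraries of these stages entered the spread, and their means over all tiles tested were not taken, so these values are a description as well. The 175 tiles lay in sparser sequence than the tiles tested, with a median of 14 listed CpG sites per kb against 24. On X lay 16 of them (9.14%), against 4.51% of the tiles tested. In 68 of the 175 no Type4 library overlapped a primary one. The choice of the tiles by these libraries favours this, and some tiles were measured in only 3 libraries of a group. No share over all tiles tested was taken under this rule, so the 68 are a description too.

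Promoters were reached through their sequence. RefSeq promoter windows of GRCm38.p6, from 250 bases before to 50 after the start of a gene, were placed on the mm9 sites by matching the spacing and flanking bases of their CpG sites, and 9301 of 32851 windows were placed and used. The sequences below show the 250 bases before the start for windows described further on, 2 of maternal imprints and 1 of a germline gene. None of them was called. The window of Fkbp6, a cochaperone of meiosis and transposon silencing, lies at chr5:135825734-135826033, that of Mcts2, an imprinted retrogene, at chr2:152512634-152512933, and that of Zrsr1, an imprinted retrogene of a splicing factor, at chr11:22871755-22872054 (all mm9, read on the strand of the gene). Capitals mark the CpG sites that the files list, 14, 17 and 6 of the 29, 20 and 8 in the stretch shown.
Fkbp6: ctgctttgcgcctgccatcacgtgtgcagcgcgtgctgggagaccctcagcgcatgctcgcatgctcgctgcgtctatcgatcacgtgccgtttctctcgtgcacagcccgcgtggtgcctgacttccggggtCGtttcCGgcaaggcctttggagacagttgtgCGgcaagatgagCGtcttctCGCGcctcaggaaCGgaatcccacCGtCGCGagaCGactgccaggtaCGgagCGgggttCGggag
Mcts2: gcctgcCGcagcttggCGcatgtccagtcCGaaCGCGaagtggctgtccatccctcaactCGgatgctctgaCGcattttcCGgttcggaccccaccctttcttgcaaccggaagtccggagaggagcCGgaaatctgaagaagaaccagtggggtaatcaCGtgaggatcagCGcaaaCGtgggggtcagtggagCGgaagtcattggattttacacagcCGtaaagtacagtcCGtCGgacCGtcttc
Zrsr1: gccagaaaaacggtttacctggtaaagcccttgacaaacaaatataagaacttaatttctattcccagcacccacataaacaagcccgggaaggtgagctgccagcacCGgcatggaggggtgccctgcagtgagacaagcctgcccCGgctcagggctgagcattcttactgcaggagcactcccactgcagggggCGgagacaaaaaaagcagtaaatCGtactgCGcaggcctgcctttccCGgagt

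Most promoters had little methylation in every library. In 4367 windows tested, 0 were called (0%), 684 had an unadjusted p under 0.05 (15.7%), and the fit over 31 libraries called 2 (0.0458%). Of those measured in all 11 libraries, 2 windows passed at an adjusted p under 0.05 with differences under 20 points. The window of Gm39547 on X was at 6.96, 14.9, 0.769, 10.04 and 9.51% in Type4 replicates 1, 2, 4, 5 and 6 and between 0 and 3.25% in the primary libraries (quasi-binomial, adjusted p = 0.0356). That of Ssx2ip, a protein of cell junctions and centrosomes, was at 2.29, 0, 0, 0.952 and 1.70% in the same order of Type4 libraries. It was at most 0.176% in primary libraries (quasi-binomial, adjusted p = 0.0356). In both windows the groups overlapped, and the unadjusted p of this test ran low on simulated data. The mean over all windows a library measured ran from 1.19 to 2.78% in Type4 and from 1.45 to 2.11% in primary libraries. On X it was 13.5, 12.3, 5.74, 12.1 and 2.18% in Type4 replicates 1, 2, 4, 5 and 6, and between 1.82 and 7.45% in primary libraries. These windows differ between libraries. The 22 X windows low in both Type2 and Type7 and measured in all 11 libraries averaged 9.91, 11.8, 3.15, 5.94 and 3.01% in the same order. Primary libraries lay between 1.32 and 7.07% there, so Type4 replicate 5 was inside their range. The 30 windows low in Type2 and high in Type7, measured in all 11 libraries, averaged 8.67, 14.2, 1.64, 8.02 and 2.71% in the same order of Type4 libraries, and between 1.11 and 10.1% in primary libraries. Windows methylated in the full-grown oocyte thus overlapped between the groups.

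Germline gene promoters ranged widely between the Type4 libraries. The list held 34 genes, of which 17 were matched and 7 windows tested, none of them called in either direction, and their median difference was 15.05 points against -0.138 over all windows tested. The mean over the windows a library measured was 20.3, 41.9 and 32.4% in Type4 replicates 1, 2 and 5 and 1.36 and 1.26% in replicates 4 and 6, against 0.539 to 16.1% in primary libraries. These means rest on 5 to 12 windows, which differ between libraries, so they do not compare like with like. Only Slc25a31, Fkbp6 and Asz1 were measured in all 11 libraries, and their order of libraries differed, as given below. The 3 high libraries are again those with an X measure above 0 over the common tiles, and the part of somatic DNA in these levels was not tested. Fkbp6 stood at 28.2, 73.4, 0, 25.2 and 0% in Type4, between 0 and 4.84% in primary libraries and at 98.2% in Type7 (difference 22.7 points, quasi-binomial adjusted p = 0.294). Dazl, an RNA-binding protein of germ cells, stood at 10.9, 47.2, 60.5 and 0% in Type4 replicates 1, 2, 5 and 6, at 0, 0.825, 0 and 12.2% in the 4 primary libraries that measured it, and at 0.346% in Type7 (difference 26.4 points, adjusted p = 0.383). Both windows were above the primary range in Type4 replicates 2 and 5, whereas in replicate 1 Dazl lay within it. Other windows had a different order of libraries. Slc25a31, a germ cell ADP/ATP carrier, was at 79.9% in Type4 replicate 5 alone, and at 43.8% in Type3a replicate 4. Asz1, a piRNA pathway protein, was at 80.8% in Type3b replicate 2 and at 49.2% in Type4 replicate 5. Unlike the other germline windows tested, Asz1 (difference -4.30 points) and Tex101 (-7.27 points) had a lower mean in Type4.

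The maternal imprint promoters that are methylated in Type7 were below that level in every library that measured them. The list held 16 genes, 8 were matched and 6 windows tested, with none called and a median difference of -1.02 points. Mcts2 stood at 19.8, 26.02, 0.461, 25.1 and 4.57% in Type4 replicates 1, 2, 4, 5 and 6, at 32.4, 0 and 9.06% in Type3a and at 24.9, 17.7 and 12.9% in Type3b, compared with 97.5% in Type7. Zrsr1 stood at 5.99, 37.1, 0.794, 14.4 and 0% in Type4, and was highest in Type3b replicates 2 and 3, at 54.5 and 48.9%, compared with 97.2% in Type7. The groups overlapped in both. Replicates 4 and 6 were the lowest Type4 libraries in each, and had at most 4.57%. The Snrpn/Snurf window, the start of an imprinted transcript of chromosome 7, was at 47.4, 23.0 and 0% in Type4 replicates 1, 5 and 6 and between 0 and 86.6% in 4 primary libraries. The windows of Grb10 and Inpp5f had 0.0741 and 0% in Type7, so they do not hold the stretch that gains the mark in the oocyte.

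Genes of the methylation machinery were low at their promoters in both groups. Of 15 genes 10 were matched and 3 windows tested, with none called. Dnmt1, the maintenance methyltransferase, was between 0 and 4.13% in all 11 libraries, although its window reached 38.0% in Type5b and 99.8% in Type7. Uhrf1, the partner that brings DNMT1 to replicated DNA, was at most 0.969% in Type4 and at most 4.93% in primary libraries. Of the granulosa genes, 3 of 12 were matched and 1 window tested, that of the oestrogen receptor gene Esr2, which was at most 2.54% in Type4 and at most 18.2% in primary libraries. Of the oocyte genes, 3 of 16 were matched and 1 was tested. This was Nlrp5, a maternal effect gene, at 48.4% in Type4 replicate 5 and 0% in replicates 4 and 6, and between 0 and 50.4% in primary libraries. Meg3, the 1 matched gene of 5 in the paternal imprint list, was at 35.3, 12.96, 0, 0 and 15.5% in Type4 and at most 0.905% in 3 primary libraries (quasi-binomial, adjusted p = 0.169).

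**Figure D4:**
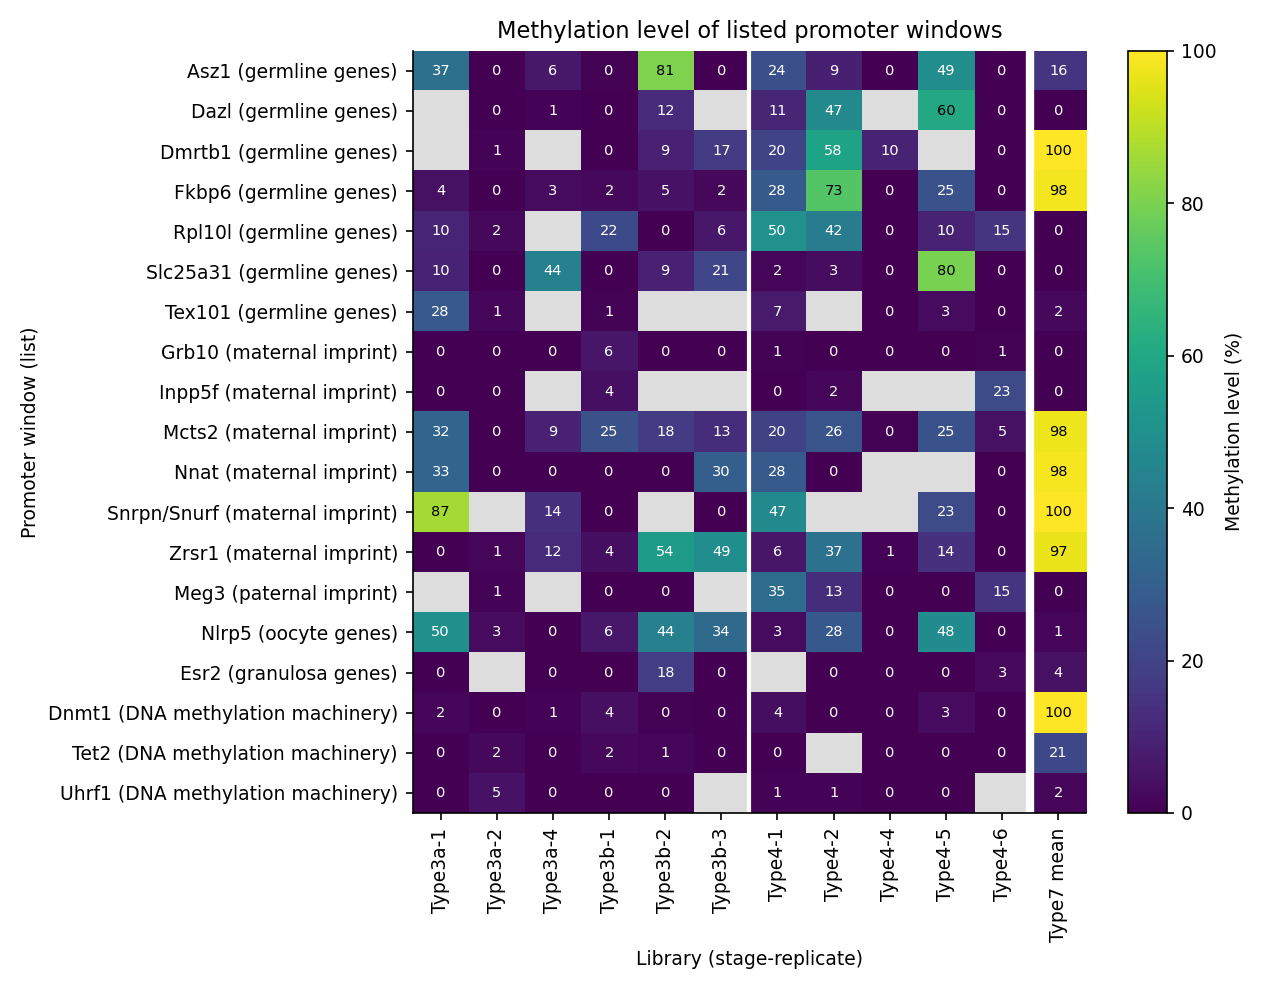
Colours and numbers show the level (percent) of listed promoter windows measured in at least 3 libraries of each group, with the Type7 mean in the last column and grey where a library lacks the window. Type4 replicates 4 and 6 are near 0 in the germline and imprint windows, apart from values up to 23.1%, while replicates 1, 2 and 5 hold levels that differ from gene to gene.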

How the data were processed

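Each deposited file lists CpG sites with a count of reads, a count of those that are methylated and the authors' methylated fraction. Reads were aligned with BSMAP 2.89 to mm9, per the submitters' processing notes, and for the caller and the trimming nothing is given in the sources used here. Every listed site has 3 or more reads. Tiles of 100 bp with at least 3 sites of at least 5 reads were formed from the counts. Without molecular identifiers, PCR copies enter the counts. Library values were compared by exact permutation over the 462 ways to choose 5 of 11 libraries (56 for 5 of 8). Tiles were tested by a quasi-binomial F test with dispersion moderated over tiles and floored at 1, and Benjamini-Hochberg adjustment. On simulated data its unadjusted p fell under 0.05 in unchanged tiles clearly more often than the nominal rate. Its calls there held a clearly larger share of unchanged tiles than the adjusted limit allows. Alternatives were limma 3.58.1, edgeR 4.0.16 (R 4.3.3), other read, site and tile sizes, and libraries left out. Python 3.11.15, numpy 2.4.6, scipy 1.17.1 and pandas 2.3.3 were used.

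The libraries compared, the X measure and the gene lists were chosen with earlier results of these data known. Named tiles are called ones or, as fewer than 5 were called, the 10 with the smallest unadjusted p in all 11 libraries. Genes were not to be placed without an annotation of mm9: the promoter windows, at least 4 listed sites matched by sequence and a shift shared with a neighbouring window, were added after the files were seen, as were the gene lists, the deepest tiles and the X measure over a library's own tiles. No coordinates were converted between builds.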

Additional observations from a re-analysis of the deposited data

Results flagged for a closer look

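Mitochondrial reads lie outside the tiles compared, and were more frequent in every Type4 library than in every primary one. In RPM of the reads over sites they stood at 15.4, 17.3, 50.1, 42.9 and 15.4 in Type4 replicates 1, 2, 4, 5 and 6, a mean of 28.2 ± 16.9 (SD, n = 5). In Type3a they stood at 2.59, 0.251 and 1.34 and in Type3b 3.26, 0 and 2.71, a mean of 1.69 ± 1.37 (n = 6). The difference was 26.5 RPM. The item was flagged because the groups did not overlap, which fixes the exact permutation p at 0.00216, the smallest the design allows. That p therefore adds no support. Replicates 4 and 6, low in mean level, were not apart from the other Type4 libraries here. Between 252 and 1259 mitochondrial reads were counted per Type4 library and between 0 and 151 per primary one. No library was far enough from its group to be set apart in any of 10 checks of 5 measures in both groups, where chance sets apart about 1 group in 20.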

How the results depend on the processing

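The mean level was higher in Type4 under every alternative that kept the 3 libraries of X measure above 0. Without them the difference was -2.25 points against primary, -1.66 against Type3a and -2.84 against Type3b. The classes turned too: -4.00, -2.87, -2.001, -1.59 and -0.86 points from the sparsest to the densest CpG class, -1.13 in tiles low to low, -2.80 low to intermediate, -3.73 low to high and -2.003 high to high, and 3.03, -2.64 and -0.386 for the shares of low, intermediate and high tiles. Those libraries were chosen by the X measure, whose difference was 1.49 points without them, and 4.17 over each library's own tiles. They are also the 3 highest of the 11 libraries in mean level, so leaving them out lowers the difference by construction.

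Called tiles numbered 0 with the 11 libraries and 178 with the spread of all 31 libraries. They numbered 1 at 3 or more reads per site, at 5 or more sites per tile, in 500-bp tiles and without CCGG sites, 6 with limma, and 2 (1 higher, 1 lower) without the 3 libraries. Leaving out 1 library at a time gave 0 to 70 calls, 70 without Type4 replicate 6, 6 without replicate 4, 2 without replicate 5 and 5 without Type3b replicate 3, all higher in Type4. Some replicate numbers recur in the groups, and the labels do not say whether the numbers pair libraries. Same-numbered libraries deviated together no more than others (correlation of deviations -0.298 to 0.204 over 7 pairs, against -0.349 to 0.344 over 32). So few pairs cannot exclude a pairing, and none was used in the main tests. With the replicate number as a block, limma called 31 tiles, all higher. Over numbers 1, 2 and 4, the mean level differed by 6.98 points (exact permutation within numbers, p = 0.0556). Type4 replicates 5 and 6 and Type3b replicate 3 have no partner of their number in the other group and were not used. That p is the smallest the exchange within numbers allows, so the test could not have passed and nothing is read from it. The shallowest library, Type4 replicate 4, had a median of 12 reads per site and 51609 tiles, so tiles it lacks rest on 4 Type4 libraries at most. In the deepest 1% of tiles, added after seeing the data, the difference was 8.02 points (exact permutation p = 0.186).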
